A study of Mus musculus with 9 samples.

Results

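Cytosolic ribosomal protein genes encode the protein subunits of the ribosomes that translate nuclear mRNAs. Their promoters were examined by NOMe-seq, an assay in which fixed nuclei meet a GpC methyltransferase that can reach only DNA free of nucleosomes, and the methylated GpC sites are then found by bisulfite sequencing. The percent of GpC methylation rises with the openness of the DNA in the cell population. Members were the windows of the deposited GpC table on chromosomes 1 to 19 that hold the 5′ end of a protein-coding gene named Rpl or Rps with a number, or Rplp0, Rplp1, Rplp2 or Rpsa, in GENCODE M21. The rule found 77 genes in 77 separate windows out of 833294 deposited windows, 30 of them for small subunit (Rps) and 47 for large subunit (Rpl) proteins, on 18 chromosomes. A value was present in all 9 libraries for 75 members, and counts and medians over the set refer to these. The Rps19 window had no value in the day 6 control and the Rpl10a window none in the day 7 knockdown. The comparison set was the 29484 other autosomal windows with a value in all libraries in which a coding gene or a lncRNA gene starts, called other promoters here.

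The cells were female mESC lines from FVB/NJ dams crossed with CAST/EiJ sires, so every library carried the same F1 genotype. One library came from undifferentiated cells at day 0. The others came from differentiating cells at days 4, 5, 6 and 7 that carried either a non-silencing shRNA (Nons) or an shRNA against Smarcc1, with transduction on day 2 and puromycin selection on day 3. Smarcc1 belongs to the structural core of BAF, a complex that slides and evicts nucleosomes. Differentiation was undirected and began when cells left 2i medium for DME HiHi medium, so each library averages over whatever cell types were present. RNA was not measured in these libraries, and cell identity and knockdown level could not be checked from them.

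There was 1 library per condition and day, so no difference between a pair of libraries has a replicate check or a p-value. The only p-values come from a limma fit of the mean knockdown effect, in which the 4 days stand in for replicates. The read depth behind a window is unknown. Each library moved as a whole, with medians over the other promoter windows from 8.04% in Nons at day 7 to 27.3% in Nons at day 5, so members were always set against other promoters of the same library. The 95% intervals beside medians are exact binomial intervals from the ordered values and cover only the spread between windows.

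Ribosomal protein genes are among the most strongly and steadily transcribed genes of dividing cells, since every ribosome needs 1 copy of nearly all of these proteins. Their promoters typically lack a TATA box, start transcription within a tract of pyrimidines, and often carry sites for ETS family factors, YY1 and SP1. The pyrimidine tract at the start of the mRNA, called a 5′ TOP, lets growth signals control how these mRNAs are translated.

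Promoter sequences were available from RefSeq on GRCm38.p6 for 57 of the 77 members, as 250 bases before and 50 after the start. The stretches printed below run from 45 bases before the start to 20 bases from it, with capitals marking the letters CTTTC on the sense strand, a CCGGAAG on either strand, an ATGGCGG on either strand or a TATAAA on the sense strand, where they occur. The first set belongs to the 4 members with the highest mean GpC methylation over the 9 libraries.
Rpl27a (chr7:109519150-109519214, plus strand): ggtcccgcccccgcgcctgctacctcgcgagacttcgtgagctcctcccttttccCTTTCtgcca
Rplp0 (chr5:115559422-115559486, plus strand): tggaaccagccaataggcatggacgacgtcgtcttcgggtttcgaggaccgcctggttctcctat
Rps12 (chr10:23787190-23787254, minus strand): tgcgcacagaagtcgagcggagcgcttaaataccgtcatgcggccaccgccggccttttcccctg
Rps27l (chr9:66946041-66946105, plus strand): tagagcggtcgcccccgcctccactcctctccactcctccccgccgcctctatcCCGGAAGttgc
The next pair belongs to Rps6, whose phosphorylation by S6 kinases is a common readout of growth signalling, and Rpl11, which together with Rpl5 restrains Mdm2 when ribosome assembly is disturbed. Both lay in the middle of the set.
Rps6 (chr4:86857348-86857412, minus strand): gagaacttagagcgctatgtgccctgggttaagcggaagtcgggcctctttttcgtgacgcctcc
Rpl11 (chr4:136053374-136053438, minus strand): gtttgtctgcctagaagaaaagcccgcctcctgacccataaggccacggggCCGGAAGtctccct
The last set belongs to members near the bottom, namely Rpl5, the muscle paralog Rpl3l and the germline paralog Rpl39l. The Rpl5 window held no curated RefSeq start of the gene, as described further on.
Rpl5 (chr5:107900483-107900547, plus strand): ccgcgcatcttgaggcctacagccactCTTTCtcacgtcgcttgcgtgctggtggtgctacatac
Rpl3l (chr17:24727781-24727845, plus strand): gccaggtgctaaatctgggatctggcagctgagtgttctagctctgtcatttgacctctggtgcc
Rpl39l (chr16:10170183-10170247, plus strand): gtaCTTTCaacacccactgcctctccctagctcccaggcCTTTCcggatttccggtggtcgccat

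CTTTC, the core of a pyrimidine tract, was found on the sense strand between 20 bases before and 50 after the start in 28 of 57 members (49.1%), against 9.003% of all 25748 autosomal RefSeq promoters and 10.1% of 69 promoters of mitochondrial ribosomal protein genes. CCGGAAG, an ETS family motif, was found on either strand over the whole stretch in 23 members (40.4%), against 9.32% of all promoters and 34.8% of the mitochondrial ribosomal protein promoters. ATGGCGG, a YY1 motif, was present in 9 members (15.8%), against 4.22% and 18.8%. GGGCGG, an SP1 motif, was present in 33 members (57.9%), against 36.4% and 49.3%. TATAAA within the 50 bases before the start was present in 0 members and in 2.94% of all promoters, and the E-box CACGTG was present in 5 members (8.77%) and 7.19% of all promoters. The motifs searched do not overlap in their letters, apart from the shared GGCGG of the YY1 and SP1 motifs. The pyrimidine letters thus separated this set from the mitochondrial set by count, and the ETS letters were frequent in both. The 27 members with CTTTC and a value in all libraries had a median mean level of 25.6%, and the 28 without it 22.9%, given as a description only.

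The member windows were more open than other promoters in every library. At day 0 the median GpC methylation over members was 22.7% (95% interval 16.7 to 25), against 13.7% over the other promoter windows. In the control it was 27.0% (26.0 to 29.4) at day 4 and 40.3% (36.5 to 44.4) at day 5, against 17.2% and 27.3%. At days 6 and 7 of the control it was 19.05% (17.4 to 21.3) and 12.7% (11.2 to 15.1), against 12.9% and 8.04%. The interval of the members lay above the other promoter median in 9 of 9 libraries.

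In the Smarcc1 knockdown the member medians were 23.2% (21.5 to 26.5) at day 4, 31.7% (29.2 to 35.5) at day 5, 23.0% (19.4 to 26.5) at day 6 and 15.5% (11.9 to 19.3) at day 7. The other promoters had medians of 13.6%, 24.1%, 14.6% and 8.82% in the same libraries. Over the 9 libraries the members exceeded the other promoters by 4.64 to 13.0 percentage points, and the log2 ratio of the medians lay between 0.40 in the knockdown at day 5 and 0.81 in the knockdown at day 7. In points the excess was largest in Nons at day 5, the library with the highest level, and smallest in Nons at day 7, the library with the lowest.

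**Figure D1:**
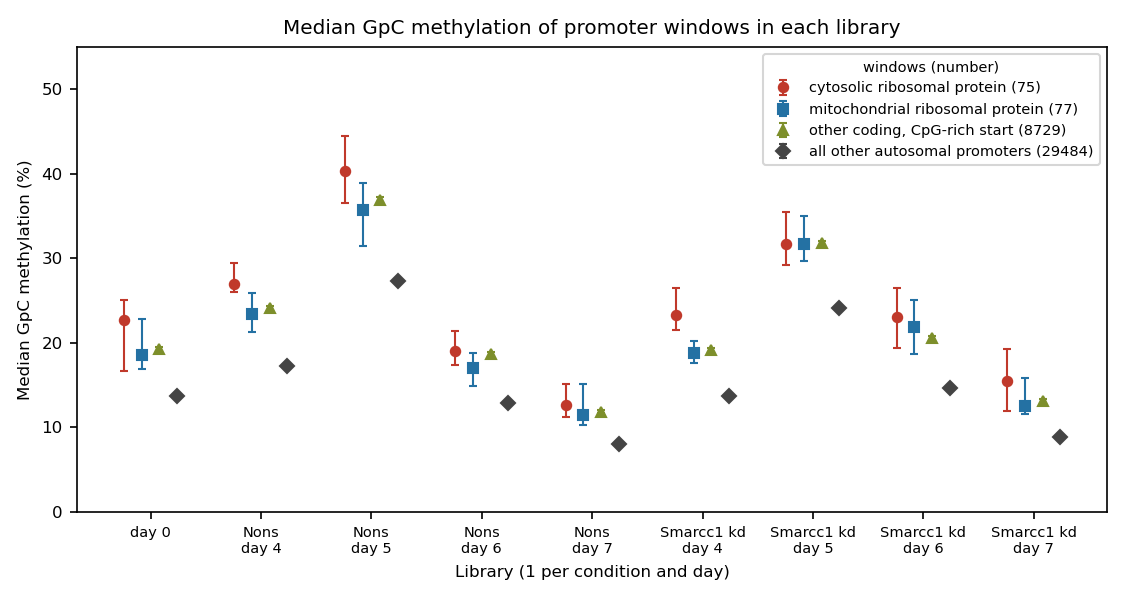
Median GpC methylation (%, vertical axis) of 4 sets of promoter windows in each of the 9 libraries (horizontal axis), with bars for the exact binomial 95% interval of the median over windows. The ribosomal protein windows lie above all other autosomal promoters in each library, and close to promoters with a CpG-rich start, with the cytosolic and mitochondrial medians 0.0104 points apart in the knockdown at day 5.

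Most of this height was shared with promoters of similar base composition. Of the 77 members, 65 had a CpG-rich start (at least 0.6 observed over expected CpG and 50% GC in the 500 bases around the 5′ end). The 8729 other protein-coding promoter windows with a CpG-rich start had medians of 19.2% at day 0, 24.1%, 36.9%, 18.6% and 11.8% in the control, and 19.1%, 31.9%, 20.6% and 13.0% in the knockdown. The member median was higher in 8 of 9 libraries, by at most 4.11 points, and 0.175 points lower in the knockdown at day 5. The members' interval excluded the CpG-rich median in 2 libraries, Nons and the knockdown at day 4. In the other 7 libraries it included that median, so a difference from CpG-rich promoters in general was not resolved there.

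Mitochondrial ribosomal protein genes, whose products build the separate ribosomes of mitochondria, gave a second comparison with 77 windows. Their medians were 18.5% at day 0, 23.4%, 35.7%, 16.9% and 11.5% in the control, and 18.8%, 31.7%, 21.9% and 12.5% in the knockdown. The cytosolic set was higher in 9 of 9 libraries, but by only 0.0104 points in the knockdown at day 5 and by at most 4.61 points. The interval of the cytosolic set lay above the mitochondrial median in 4 libraries.

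Member windows had a median GC content of 50.8% and 140 GpC sites, against 47.0% and 126 over the other promoters, and 52.2% and 147 over the CpG-rich promoters. They were also shorter (median 2216 against 2439 bp), and windows shorten where coverage is dense. Across the 75 members the mean level had a Pearson correlation of 0.29 with GC content, 0.33 with the number of GpC sites and -0.15 with window length. These are descriptions over windows of the same 9 libraries, and the part of base composition in the excess was not tested beyond the comparison with CpG-rich promoters. The 12 members without a CpG-rich start had a median mean level of 23.4%, close to the 24.0% of the 63 with one. The 9975 other protein-coding promoter windows without a CpG-rich start had 14.2%, against 22.3% with one. The splits were not alike, so these gaps cannot be compared directly. Members were sorted by their own start, and other windows by any coding start they held. Rpl35, Rpl41 and Rpl4, counted as without one, share windows with Arpc5l, Zc3h10 and Zwilch, whose starts were not considered. The 12 members were also not all poor in CpG. Some missed only the GC limit, such as Rps26, Rpl41 and Rps9 (0.998, 0.929 and 0.889 observed over expected CpG). Others missed the CpG limit, such as Rpl27 (0.572) and Rps10 (0.291). For Rps10 the nearest curated RefSeq start lay 1425 bases from the GENCODE 5′ end used for this count.

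Each window was also scored by the number of libraries in which it lay above the other promoter median of that library. The count was 9 of 9 for 17 of 75 members (22.7%), against 5.3% of all autosomal promoter windows, and 0 members lay below the median in all 9 libraries, against 2.86%. No member was above it in fewer than 4 libraries. Among the 17 were Rpl27a, Rplp0, Rpl29, Rpl35, Rpl38, Rpl28, Rpl37, Rps29, Rpl4, Rpl37a, Rps20, Rps27, Rps28 and Rps27a. When a window had instead to have its midpoint no more than 1 kb from a start, the count was 9 of 65 member windows (13.8%), against 5.27% of all autosomal promoter windows and 12.7% of the CpG-rich coding promoters. With the windows as first defined, the same count was reached by 13.9% of the other CpG-rich coding promoters and by 16.9% of the mitochondrial ribosomal protein promoters. Against the higher bar of the CpG-rich median, 1 of 75 members (1.33%) and 1.92% of the CpG-rich promoters passed in all 9 libraries. The members' share was thus above that of promoters as a whole, and at that higher bar it was near that of CpG-rich promoters.

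**Figure D2:**
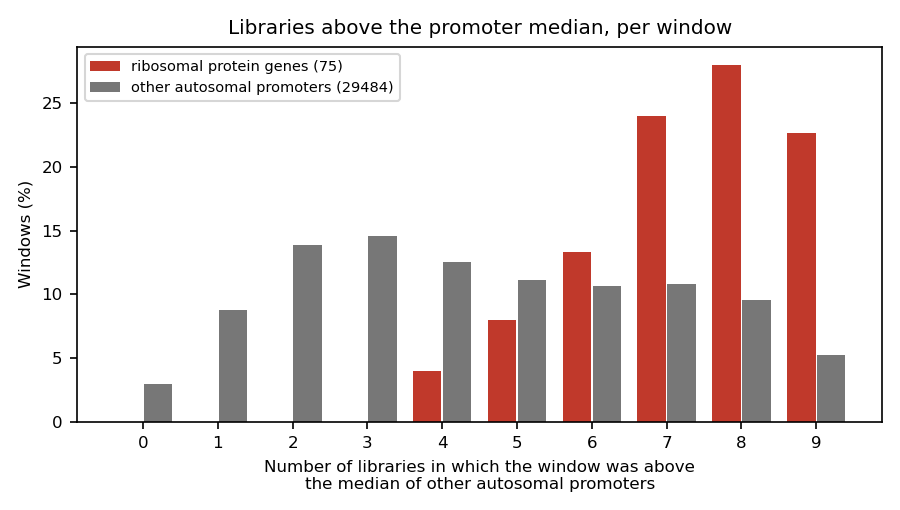
Share of windows (%, vertical axis) by the number of libraries in which the window was above the other promoter median (horizontal axis), for the 75 member windows (red) and 29484 other autosomal promoters (grey). The members sit at 4 to 9 libraries, and 22.7% of them reach 9.

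The mean over the 9 libraries ran from 15.4% for Rpl32 to 36.9% for Rpl27a, with a median of 23.8%, against a median of 15.7% over the other promoters. The mean of 74 of 75 members exceeded that median, 57 were at or above the 75th percentile of other promoters and 29 at or above the 90th. Single windows were variable, however. The median difference between the highest and the lowest library of a member was 34.8 points, and the Pearson correlation between 2 libraries over the 75 members was between -0.05 and 0.31 (median 0.15 over 36 pairs). Over the other promoters it lay between 0.24 and 0.47. The order of single members is therefore weakly fixed by these data, and neighbouring ranks do not differ beyond the spread over libraries.

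**Figure D3:**
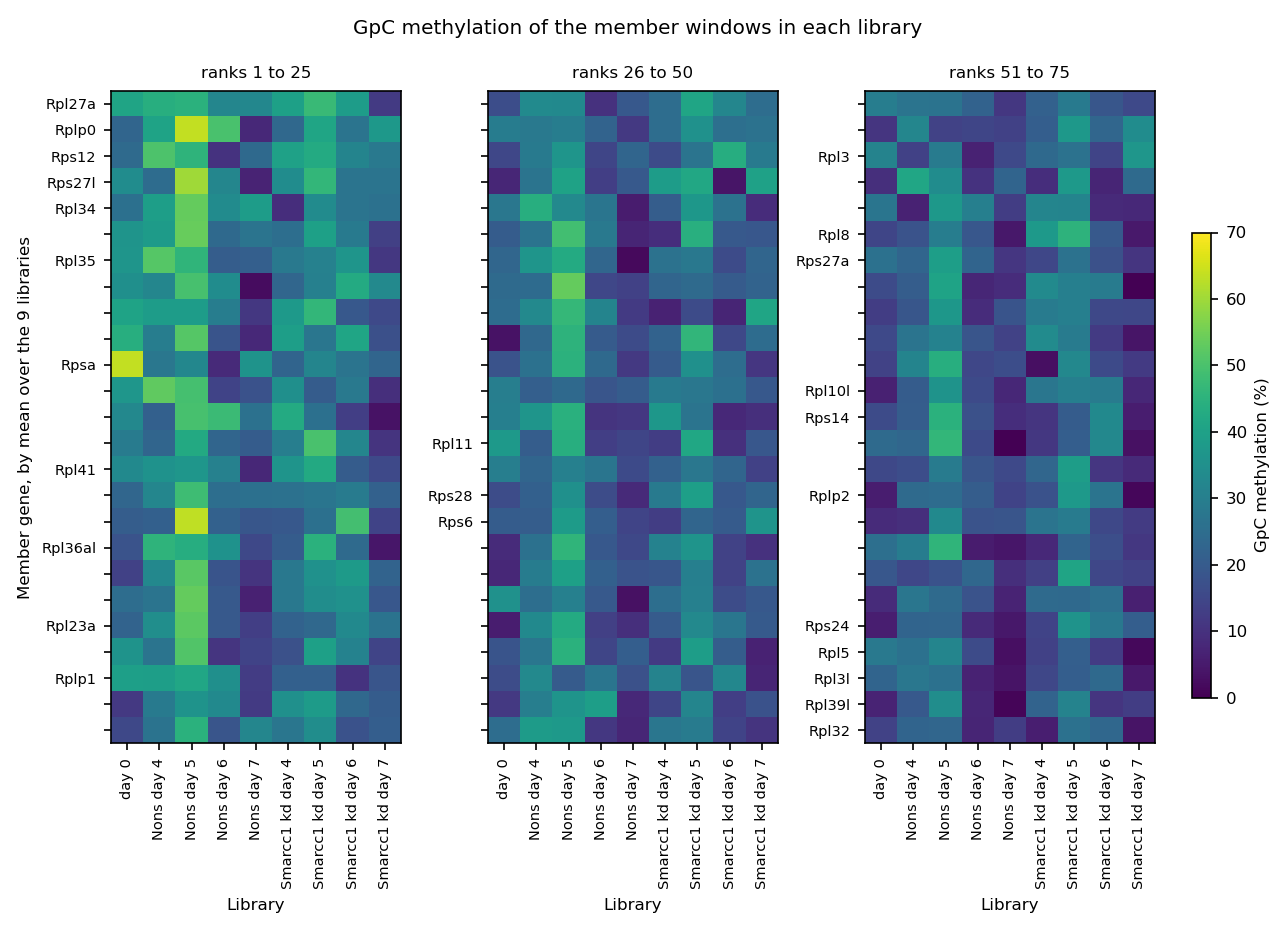
GpC methylation (%, colour) of each of the 75 member windows (rows, in order of the mean over libraries, in 3 panels) in the 9 libraries (columns), with row labels for the genes named by rule. The columns of day 5 are the brightest and those of day 7 the darkest, and single members such as Rpsa at day 0 (63.6%) depart from their neighbours.

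Among the members with a value in every library, Rpl27a was the highest. Its window (chromosome 7, 109517390 to 109519628) read 40.9% at day 0, 43.8%, 44.7%, 32.2% and 32.3% in the control and 39.8%, 47.4%, 38.6% and 11.9% in the knockdown. Rpl27a was thus high in all libraries but the knockdown at day 7. Rplp0, the scaffold of the ribosomal stalk that recruits elongation factors, followed (chromosome 5, 115557938 to 115559900) with 23.0% at day 0, 40.6%, 63.7%, 50% and 8.20% in the control and 23.5%, 41.3%, 26.9% and 37.3% in the knockdown. Its mean of 34.9% rested on libraries that differed by more than 50 points. Its stalk partners Rplp1 and Rplp2 had lower means, 26.6% and 19.3%, with ranges from 10.3% to 41.4% and from 1.32% to 38.0%.

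Rps12 (chromosome 10, 23786260 to 23788163) read 24.3% at day 0, 50.4%, 45.5%, 10.3% and 23.8% in the control and 40.0%, 42.7%, 31.7% and 28.2% in the knockdown. Rps27l, a paralog of Rps27 that is induced by DNA damage signalling (chromosome 9, 66945496 to 66947304), read 34.0% at day 0, 24.7%, 60.2%, 32.0% and 7.04% in the control and 33.9%, 46.2%, 26.9% and 26.9% in the knockdown. Each of these members fell below the other promoter median in 1 library. Rps19, the first gene tied to Diamond-Blackfan anaemia, had a mean of 35.5% over the 8 libraries with a value, from 17.9% at day 0 to 51.0% in Nons at day 7.

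At the lower end was Rpl32 (chromosome 6, 115808680 to 115810902), with 13.9% at day 0, 22.5%, 23.1%, 7.14% and 12.7% in the control and 5.95%, 26.0%, 23.3% and 3.66% in the knockdown. It is a broadly expressed large subunit gene, and it was the only member whose mean was below the other promoter median. The paralogs of restricted expression were also low. Rpl39l, the male germline counterpart of Rpl39 (chromosome 16, 10169605 to 10171684), read 7.09% at day 0, 19.6%, 34.4%, 7.58% and 0.962% in the control and 22.3%, 31.4%, 10.7% and 12.7% in the knockdown.

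Rpl3l, which replaces Rpl3 in striated muscle (chromosome 17, 24727253 to 24729004), read 22.7% at day 0, 27.8%, 26.2%, 6.67% and 3.74% in the control and 15.0%, 20.8%, 23.9% and 4.84% in the knockdown. Rpl10l, the male germline copy of Rpl10, had a mean of 20.1% and values from 6.45% to 36.1%. The ranks of these 3 paralogs by mean were 62 (Rpl10l), 73 (Rpl3l) and 74 (Rpl39l) of 75. Their values overlapped those of the ubiquitous members in each library. The other l-suffix members, Rps27l and Rpl36al, ranked 4 and 18. Rps4l is annotated as a pseudogene in GENCODE M21 and was not a member.

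Some low values concern windows whose assignment to the gene is uncertain. The window chosen by the GENCODE 5′ end held a curated RefSeq start of the gene in 70 of 77 members. It did not for Rpl5, Rps16, Rpl18, Rps24, Rpl3, Rps2 and Rps14. The nearest curated start lay 26 bases from the GENCODE 5′ end for Rpl5 and 37 for Rps16, and at least 1947 bases away for the others, up to 27498 for Rps14. The 7 windows had a median mean level of 19.8%, against 24.0% for the other 68, and 0 of them were above the other promoter median in all libraries. Rpl5 and Rps24, 2 of the 5 lowest members (17.1% and 18.1%), belong to these 7. Values of Rpl3 (21.9%), Rps14 (19.8%), Rps24, Rps2 and Rpl18 given here therefore describe a window near the gene's outermost annotated 5′ end, not its curated start. Those of Rpl5 and Rps16 likewise come from a window without the curated start, although it lay close by.

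By subunit the set was even. The 29 small subunit members had a median mean level of 23.0% (18.1% to 33.0%), and the 46 large subunit members 24.8% (15.4% to 36.9%). Neither subunit was the higher one in every library. Large subunit medians were higher at day 0 (22.8% against 20.7%) and in the knockdown at day 4 (25% against 21.7%), and small subunit medians were higher in Nons at day 5 (42.9% against 37.5%) and in the knockdown at day 7 (18.99% against 14.1%). The 17 members of the Diamond-Blackfan anaemia list, the genes mutated in that inherited failure of red cell production, had a median mean level of 23.1%. Of these 17, 4 (Rpl35, Rps29, Rps27 and Rps28) were above the other promoter median in all libraries. That was close to the share in the whole set, 17 of 75 members (22.7%).

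Of the remaining genes with known special roles, Rpsa, also known as a laminin receptor, had 63.6% at day 0 and between 8.33% and 35.9% in the other libraries. Rpl23a, which lies at the exit of the peptide tunnel, had a mean of 27.5% (13.1% to 52.4%). Rpl11 had 23.6% (9.71% to 43.9%) and Rps6 23.0% (12.7% to 38.5%). Rps27a, which is made as a fusion with ubiquitin, had 21.2% (10.9% to 39.2%) and ranked 57 by mean. It was nevertheless above the other promoter median in 9 of 9 libraries.

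The window can hold the start of another gene as well. This was so for 21 members, 17 of them with another protein-coding gene. The highest of these were Rpl35 with Arpc5l (31.4%), Rpl41 with Zc3h10 (28.8%) and Rpl36al with Mgat2 (27.9%), and the signal of both genes cannot be told apart there. The 20 shared windows with a value in all libraries had a median mean level of 23.5%, and the 55 windows with no other start 23.8%.

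Around the start, the opening was local. Each member window was set against the mean of the windows 3 to 10 places away on both sides. At day 0 the member window exceeded these by a median of 6.84 points (3.63 to 12.6), and 57 of 75 members were higher. In the control the excess was 10.98, 16.7, 6.61 and 5.12 points at days 4, 5, 6 and 7, and in the knockdown 9.88, 9.49, 8.48 and 6.67 points. Between 76.0% and 93.3% of members stood above their surroundings in a library, against 58.9% to 73.6% of the other protein-coding promoters. At day 0 these shares were 76.0% and 62.6%. For the other protein-coding promoters the excess was 2.77 points at day 0. It was 4.28, 7.68, 3.24 and 1.84 in the control and 2.89, 5.09, 3.41 and 1.63 in the knockdown. Whether CpG-rich or mitochondrial ribosomal protein promoters share the members' larger excess over their surroundings was not tested.

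The flanks were not symmetric. The mean of the 4 windows downstream of the start exceeded that of the 4 upstream by a median of 3.29 points (2.61 to 4.37) at day 0. Of 75 members, 59 (78.7%) were higher downstream, against 50.5% of the other protein-coding promoters. The difference was 3.73, 2.51, 2.84 and 0.797 points in the control at days 4 to 7 and 2.35, 1.45, 1.59 and 1.18 points in the knockdown. The interval held 0 in the knockdown at days 5 and 6 and lay above 0 in the other 7 libraries. For the other protein-coding promoters the same difference lay between -0.212 and 0.0938 points. In the windows next to the start, the upstream median was the higher one in Nons at day 7 (7.45% against 7.24%). The same held in the knockdown at day 6 (15.4% against 14.4%), and the downstream median was higher in the other 7 libraries. Gene ends were not used, so downstream windows may reach past the gene. The asymmetry was not compared with that of CpG-rich or mitochondrial ribosomal protein promoters. The measure was chosen after the profile had been seen.

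**Figure D4:**
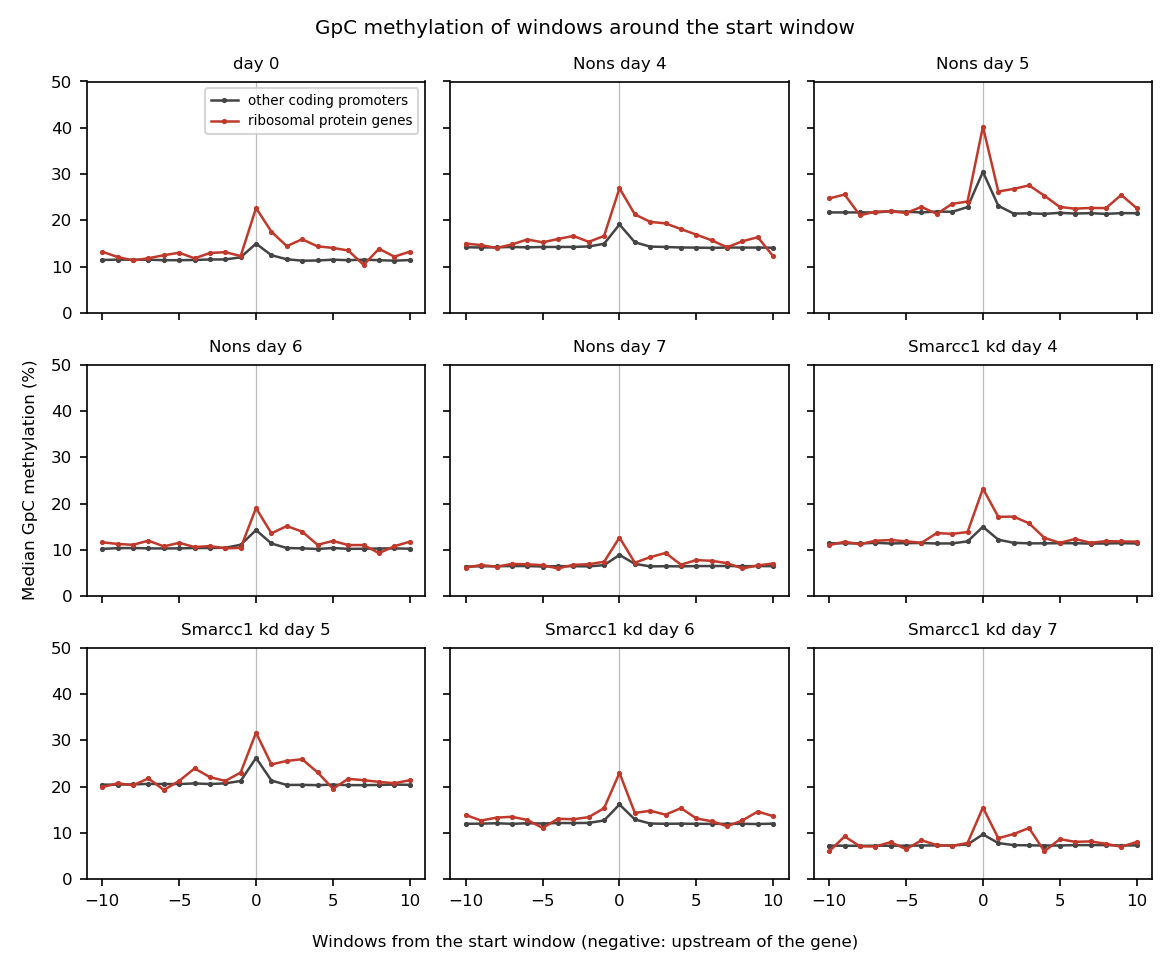
Median GpC methylation (%, vertical axis) of the windows from 10 upstream to 10 downstream of the start window (horizontal axis, in windows along the gene's strand) in each library, for members (red) and other protein-coding promoters (black). Both peak at 0, the red peak is higher in each panel, and the red line stays above the black one over the first downstream windows in most panels.

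Over differentiation with the non-silencing shRNA the members had their highest level at day 5 and their lowest at day 7, as the other promoters did. Day 0 came before transduction and selection, so differentiation and these steps cannot be told apart in changes from day 0. In the control the median paired change from day 0 was 6.30 points (2.46 to 12.4) at day 4, 18.1 (14.6 to 24.2) at day 5, -0.401 (-3.93 to 2.24) at day 6 and -8.59 (-13.3 to -3.22) at day 7. The other promoters changed by 3.43, 12.3, -0.687 and -5.35 points. At day 5, 68 of 75 members (90.7%) were above their day 0 value, against 86.2% of other promoters and 89.0% of CpG-rich coding promoters. A rise of at least 10 points was seen in 54 members (72.0%), against 58.1% of all autosomal promoter windows. At day 7, 32 members (42.7%) were at least 10 points below day 0, against 30.4%.

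The CpG-rich coding promoters changed by 4.74, 16.9, -0.791 and -6.96 points on the same days. On a ratio scale the order of members and other promoters depended on the day. From day 0 to Nons at day 4 the log2 ratio of the medians was 0.25 for members and 0.33 for other promoters, and at day 5 it was 0.83 and 0.99, so the members had the smaller rise as a ratio. At day 6 it was -0.25 and -0.089, and at day 7 -0.84 and -0.77, so the members had the larger fall. In 57 of 75 members (76.0%) the highest library was one of the day 5 libraries, as in 75.5% of other promoters, and in 48 members (64.0%) the lowest was one of the day 7 libraries, as in 62.0%. Quantile normalization, which gives each library the same distribution, left members with changes of 5.58, 4.29, 1.28 and -0.625 points over days 4 to 7. The other promoters then had 1.27, 1.07, 0.363 and 0.0939 points, and the CpG-rich coding promoters 3.54 and 3.17 points at days 4 and 5.

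The knockdown comparison asks whether loss of Smarcc1 altered these promoters. Members were lower in the knockdown than in the control at days 4 and 5 and higher at days 6 and 7, by their medians, and other promoters moved in the same directions. The median of knockdown minus control was -5.80 points (-9.57 to -1.72) at day 4, with 51 of 75 members lower, and -5.82 (-10.5 to -2.75) at day 5, with 52 lower. It was 3.03 points (-2.69 to 6.35) at day 6, with 42 members higher, and 3.04 (-0.936 to 6.02) at day 7, with 43 higher. The intervals at days 6 and 7 held 0. At day 4, 68.0% of members were lower, against 67.3% of other promoters and 67.1% of CpG-rich coding promoters. At day 5 the shares lower were 69.3%, 59.5% and 65.4%. The shares higher were 56.0%, 56.6% and 55.6% at day 6, and 57.3%, 53.9% and 53.8% at day 7. These shares of members were thus near those of the CpG-rich coding promoters on each day. The other promoters had -3.61, -2.76, 1.53 and 0.745 points, and the CpG-rich coding promoters -4.83, -4.92, 1.91 and 1.19. The 29 windows of a list of translation and ribosome assembly genes had -3.89 points at day 4 and -5.30 at day 5. At days 6 and 7 that list had 0 and -2.78 points, so it did not share the positive medians of the members. Relative to the other promoters the members differed by -2.18 points (-5.95 to 1.90) at day 4 and by -3.05 (-7.75 to 0.0139) at day 5. The interval of this relative difference ran from -4.22 to 4.82 points at day 6 and from -1.68 to 5.27 at day 7, so it held 0 on all 4 days.

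At day 4 the log2 ratio of the medians, knockdown over control, was -0.21 for members and -0.34 for other promoters, so the members' larger difference in points was the smaller one as a ratio. At day 5 the log2 ratios were -0.35 and -0.18, and the members had the larger negative difference on both scales, with an interval of the relative difference in points that held 0. At days 6 and 7 they were 0.27 and 0.29, against 0.18 and 0.13. Each value compares 1 library with 1 library, and a difference between whole libraries and an effect of the hairpin cannot be told apart.

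**Figure D5:**
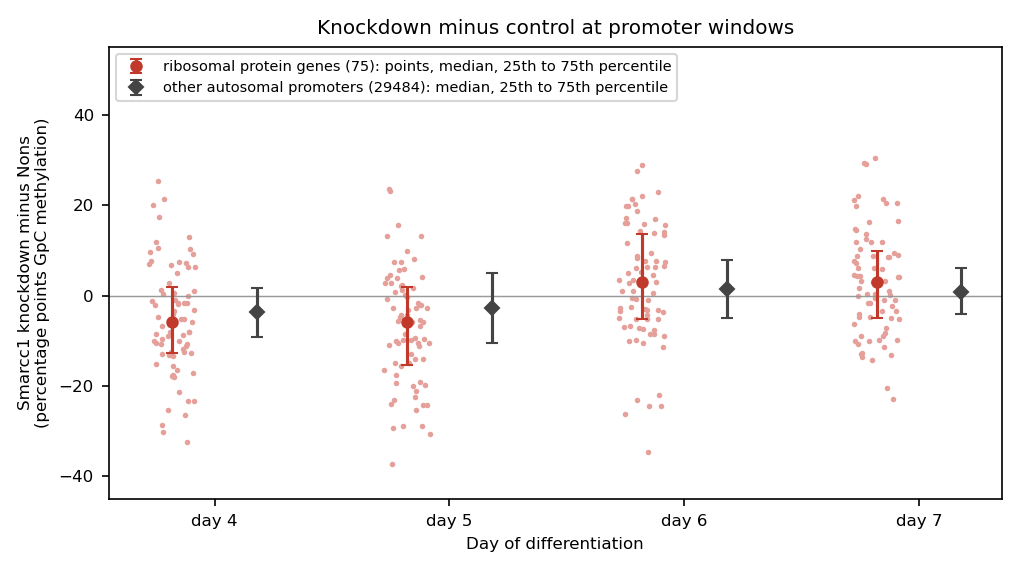
Knockdown minus control in percentage points of GpC methylation (vertical axis) at days 4 to 7 (horizontal axis). Small points are the 75 members, large markers are medians and bars run from the 25th to the 75th percentile of windows, in red for members and in black for 29484 other autosomal promoters. The medians of both sets lie below 0 at days 4 and 5 and above 0 at days 6 and 7, and the members spread over both signs on every day.

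Few members moved the same way on all 4 days. The knockdown was lower on every day in 4 of 75 members (5.33%), against 7.97% of all autosomal promoter windows, and higher on every day in 2 (2.67%), against 4.2%. The members with the largest mean differences among those lower throughout were Rpl34, Rpl5 and Rps27a. Rpl34 (chromosome 3, 130728562 to 130730644) read 39.3%, 53.5%, 33.9% and 38.7% in the control and 9.23%, 33.8%, 26.9% and 26.1% in the knockdown, a mean difference of -17.3 points (SD over days 9.95, n = 4 days), and 25.9% at day 0. Rpl34 was thus lower in the knockdown by between 6.98 and 30.1 points. Rpl5 differed by a mean of -7.06 points and Rps27a by -6.57.

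The members higher throughout were Rps28 and Rpl8. Rps28, a small subunit gene of the Diamond-Blackfan list, read 21.4%, 35.0%, 16.3% and 8.33% in the control and 28.9%, 39.6%, 19.4% and 22.8% in the knockdown, a mean difference of 7.41 points. Rpl8, a large subunit gene near the catalytic centre, read 17.8%, 29.7%, 19.05% and 4.55% in the control and 37.9%, 45.2%, 19.6% and 4.84% in the knockdown, a mean of 9.11 points. The Rpl8 difference was 20.1 and 15.5 points on days 4 and 5, and 0.540 and 0.293 points on days 6 and 7.

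A fit over all 829493 windows with limma, with day as a block and the days standing in for replicates, called 0 windows (0%) and thus 0 members for a mean knockdown effect at an adjusted p of 0.05. The smallest adjusted p among members was 0.995. An unadjusted p under 0.05 was reached by 35121 windows, among them 9 of 75 members (12%, of which 3 were higher and 6 lower in the knockdown), against 8.73% of autosomal promoter windows. The lower ones were Rpl34, Rpl29, Rpl22, Rpl36al, Rplp1 and Rpl17, and the higher ones Rpl3, Rpl8 and Rps24. Rpl34 had the smallest p of them, 0.000692 before adjustment, with an adjusted p of 0.995. No member is therefore shown to respond to the knockdown across days.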

How the data were processed

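GpC methylation was measured by NOMe-seq in 9 libraries. Trimming (trim_galore), alignment (bismark, on mm10 with FVB/NJ and CAST/EiJ differences masked) and GpC calling (coverage2cytosine) were done by the authors. They deposited a percent GpC methylation for each window of 200 read positions, the number being that of the table's own name, made in Seqmonk from the merged alleles. Library medians differed widely, so values were treated as not normalized between libraries. Counts per window and hence depth are not given in the sources used here. The table also lists neighbouring features, which were not used.

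Starts were taken from GENCODE M21 on GRCm38 (34568 protein-coding and lncRNA genes), and windows needed a value in all 9 libraries (829493 of 833294). Sets were summarised by medians over windows. The knockdown term was fitted with limma 3.58.1 (R 4.3.3) to the percent values, with day as block and Benjamini-Hochberg adjustment over all windows, after a test on simulated data. The days are a time course, and where they stand in for replicates the p-values measure only the spread between days. Motifs were exact string matches. Other steps used Python 3.11.15, pandas 2.3.3 and scipy 1.17.1.

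Members and gene lists were chosen with earlier results of these data known. Members named are those with the 5 highest and 5 lowest means, up to 3 with the largest mean rise or fall among members of 1 sign on all days, a list of genes with special roles, and the 3 highest windows shared with another coding gene. Members above the median in all libraries and members past an unadjusted p are named because the counts were small or the values had been seen. Single values of a few genes are not reported here. The Smarcc1 knockdown cannot be checked at the RNA level here.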

Additional observations from a re-analysis of the deposited data

Results flagged for a closer look

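The knockdown minus control difference of the ribosomal protein promoters changed sign along the time course. Its median over the 75 member windows was -5.80 points at day 4 and -5.82 at day 5, and 3.03 at day 6 and 3.04 at day 7. The other autosomal promoters had the same signs on the same days (-3.61, -2.76, 1.53 and 0.745 points). With 1 library per condition and day the difference between days was not tested.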

How the results depend on the processing

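The limma fit pairs knockdown and control by day. A block on replicate number could not be added, since each condition and day has 1 library. With no replicates, a value counted as moved when it left the interval of the main median, or, for a count, by over 1.5 times. A log2 ratio was judged by its sign alone, not by its size. Of 345 alternative values, 307 counted as unchanged under these rules, 33 moved and 5 changed sign. Against CpG-rich coding promoters the members' excess was 2.91, 3.37, 0.443 and 0.865 points over days 4 to 7 of Nons, and 4.11, -0.175, 2.40 and 2.47 for the knockdown, with 38 (Nons day 6) and 36 (knockdown day 5) members above that median and 1 above it in all libraries. Against mitochondrial ribosomal protein promoters it was 3.55, 4.61, 2.10 and 1.201 points in Nons and 4.39, 0.0104, 1.11 and 3.02 in the knockdown, with 38 members above at day 5 of the knockdown, and the knockdown effect at day 6 relative to them was -0.788 points. With windows centred within 1 kb of a start, 9 of 65 windows were above the median in all libraries, and 17 of 75 otherwise. Quantile normalization gave changes from day 0 of 4.29, 1.28 and -0.625 points at days 5, 6 and 7, and a knockdown effect of -1.91 at day 5. Centring on the autosomal median gave 8.23 at day 5 and 0.545 at day 6. Against windows 1 and 2 places away the start window's excess in Nons at day 4 was 7.07 points. As a log2 ratio, an alternative chosen after seeing the data, the day 4 knockdown effect relative to other promoters was 0.12. Members of 1 sign on all days numbered 2 (higher) and 4 (lower). The count higher was 1 after centring, and without day 4, 5, 6 or 7 it was 6, 7, 6 and 4. The count lower was 11, 16 and 13 without days 4, 6 and 7. Leaving out a day loosens the rule, so these counts can only stay or rise. The share of all promoter windows under the looser rule is not given here, so no response is read from them. The limma count stayed at 0 in the 7 alternatives run. The cause of the other shifts was not tested. Depth per window is unknown, and differences of a few points in single windows cannot be resolved.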

Other observations

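Ribosomal protein genes outside the symbol rule were in the same range as the members. Fau, whose product is cleaved into a ubiquitin-like protein and a small subunit protein, had a mean of 24.5% over the 9 libraries, Rps3a1 26.9%, Rpl7l1 25.1%, Rpl22l1 24.5% and Rack1 17.8%. The median over the 6 such genes on the list was 24.5%, beside 23.8% for members, and 2 of the 6 were above the other promoter median in all libraries.

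The X chromosome holds 4 ribosomal protein genes of the same naming, which lie outside the rule. Rpl10 had a mean of 26.6%, Rps4x 22.6%, Rpl36a 18.8% and Rpl39 18.2%, and 2 of the 4 were above the autosomal promoter median in all libraries.

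A list of 29 genes for translation factors and ribosome assembly, such as Eef2, Ncl and Fbl, had a median mean level of 23.5%, with a range from 13.8% for Eif4e to 39.9% for Npm1, the gene of a nucleolar chaperone. The members' median was above that of this list in 5 of 9 libraries.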
